A study of Homo sapiens with 14 samples.

Results

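The 7 genes described here encode the erasers of histone H3 lysine 4 (H3K4) methylation KDM1A, KDM1B, KDM5A, KDM5B, KDM5C and KDM2B, together with SETD7, an enzyme that adds a single methyl group to H3K4. Each was represented by the deposited H3K4me2 regions that overlap its RefSeq gene span on hg38 or lie within 5 kb of it, which gave 20 of 54942 regions. The libraries are H3K4me2 ChIP-seq from the established breast cancer line MDA-MB-231, which is triple-negative (without oestrogen and progesterone receptors and without HER2 amplification). A group of 3 libraries came from cells given DMSO, the solvent, and the other group of 3 from cells given OICR-9429 dissolved in DMSO, a small molecule that binds WDR5. Treatment lasted 24 to 96 hours per the labels, without a time for each library, and every one of these libraries had 5% Drosophila chromatin added before the antibody. The titles number the libraries of each group as biological replicates 1 to 3 of a single cell line and do not say how the cultures were kept apart, so the p-values measure the spread between these libraries.

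H3K4 methylation is written by enzymes of the MLL/SET1 family, whose complexes contain WDR5, and is removed by 2 unrelated kinds of demethylase. KDM1A (LSD1) and KDM1B (LSD2) are flavin-dependent oxidases that act on the mono- and dimethylated forms, and KDM1A works mainly with the CoREST corepressor and histone deacetylases. KDM5A, KDM5B and KDM5C use a JmjC domain to act on the tri- and dimethylated forms, chiefly near gene starts. KDM2B pairs a JmjC domain, described to act on H3K36 and H3K4, with a CXXC zinc finger that binds unmethylated CpG islands, and recruits a variant Polycomb complex, PRC1.1, to them. Internal promoters of KDM2B are known to give shorter products without the JmjC domain. The mark measured here, dimethylated H3K4, is thus itself a substrate of several of these proteins, while the regions describe the chromatin of the genes that encode them and not the activity of the enzymes.

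For each gene the start region is the region that holds its annotated start, taken as the window from 250 bases before to 50 bases after the start in RefSeq (GRCh38.p14, the same build as hg38). Windows were found for all 7 genes, 10 in all, of which 4 belong to KDM2B. The 250 bases before the start are shown for the genes whose start regions differ most in the results below: KDM5C, KDM1B and SETD7, which rose, and the outermost and innermost starts of KDM2B, whose regions differed. They lie at chrX:53225208-53225457 (minus strand), chr6:18155172-18155421 (plus strand), chr4:139556220-139556469 (minus strand), chr12:121581024-121581273 (minus strand) and chr12:121467379-121467628 (minus strand). They read 5′ to 3′ along the gene, and capitals mark GC boxes, CCAAT boxes and ETS cores on either strand. Neighbouring GC boxes can overlap.
KDM5C start: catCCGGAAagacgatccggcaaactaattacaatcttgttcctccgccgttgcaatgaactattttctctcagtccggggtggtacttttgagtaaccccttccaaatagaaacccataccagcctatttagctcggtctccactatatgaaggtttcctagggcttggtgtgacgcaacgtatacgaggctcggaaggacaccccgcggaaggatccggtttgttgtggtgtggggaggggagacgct
KDM1B start: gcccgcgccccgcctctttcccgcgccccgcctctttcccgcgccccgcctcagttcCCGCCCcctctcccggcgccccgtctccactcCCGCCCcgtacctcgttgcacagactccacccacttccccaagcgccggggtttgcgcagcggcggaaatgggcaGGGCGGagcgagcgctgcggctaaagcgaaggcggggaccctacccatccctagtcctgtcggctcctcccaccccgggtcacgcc
SETD7 start: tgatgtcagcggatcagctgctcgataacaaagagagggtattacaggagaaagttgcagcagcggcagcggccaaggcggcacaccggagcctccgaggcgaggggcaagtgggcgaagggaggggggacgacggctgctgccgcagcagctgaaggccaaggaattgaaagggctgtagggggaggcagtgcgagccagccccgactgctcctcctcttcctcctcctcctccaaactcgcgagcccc
KDM2B outermost start: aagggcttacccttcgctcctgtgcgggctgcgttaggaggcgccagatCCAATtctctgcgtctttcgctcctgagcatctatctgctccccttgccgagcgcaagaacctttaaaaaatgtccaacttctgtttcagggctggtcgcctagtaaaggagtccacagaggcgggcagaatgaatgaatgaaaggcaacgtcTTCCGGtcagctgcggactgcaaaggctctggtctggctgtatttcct
KDM2B innermost start: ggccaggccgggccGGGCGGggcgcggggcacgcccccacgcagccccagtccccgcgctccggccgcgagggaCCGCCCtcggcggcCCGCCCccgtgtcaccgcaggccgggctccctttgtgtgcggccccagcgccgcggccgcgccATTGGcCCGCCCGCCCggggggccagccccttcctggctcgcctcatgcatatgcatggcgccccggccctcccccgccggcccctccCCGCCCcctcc

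The promoters of the 3 genes that rose most share no motif among those searched. The KDM5C window has an ETS core on the minus strand at -247, counted back from the annotated start, and the YY1 motif AAGATGGC at 9 bases into the gene, which is found in 2.89% of all 35116 windows of the RefSeq table. The KDM1B window has 4 GC boxes and 39 CpG dinucleotides, while the SETD7 window has 22 CpG and none of the 7 motifs searched. The innermost KDM2B window is the richest in CpG of the 10, with 46, against a median of 14 over all windows. It holds 6 GC boxes and a CCAAT box before the start. The outermost KDM2B window has 15 CpG, a CCAAT box and an ETS core. The remaining KDM2B windows lie in the same H3K4me2 region as the outermost. They have 33 and 15 CpG, and each holds GC box and ETS core matches. The GC box was searched as GGGCGG on both strands, and 45.0% of all windows hold it. CCAAT boxes, searched by the letters of their name, were found in 34.6% of all windows of the table. The core of ETS family sites was searched as TTCCGG and was found in 17.2%. The E-box CACGTG (in 7.26% of all windows), the palindromic NRF1 motif (1.24%) and the cyclic AMP response element TGACGTCA (1.85%) were searched too and stood in none of the 10. A match describes letters and is no evidence of binding.

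The 6 libraries held between 16483098 and 23509413 counts in the table, and over 99% of them lay in the 51156 regions that passed the filter on low counts. All values below are normalised CPM, the count of a region relative to the TMM-scaled library size. TMM takes most regions to be unchanged, and no factors from the Drosophila chromatin were used. A shift common to the whole table is therefore invisible, and every change is relative to the other regions. The TMM factors were 0.997 to 1.14 in the DMSO libraries and 0.906 to 0.954 in the OICR-9429 libraries, so the scaling itself moved with the groups. With plain library totals the median log2 fold change of all regions was -0.17 in place of 0.03. Loess offsets, another alternative, take out any dependence of the fold change on how strong a region is, and they lowered the median of start regions from 0.38 to 0.11. As these are bulk cultures, a change in part of the cells and a smaller change in all of them cannot be told apart. For the label's check, 7 of 8 mesenchymal breast markers (VIM, ZEB1, CD44, EGFR, AXL, CAV1 and FOSL1) had a start region, at 62.4 to 463 normalised CPM with DMSO. Summed over these 7, the level was 960 to 1192 in the DMSO libraries and 1382 to 1567 in the OICR-9429 libraries, and its part in the results below was not tested. Of 8 luminal markers 7 had one, at 11.7 to 76.2, and their sum was 208 to 296 with DMSO and 239 to 304 with OICR-9429. Among blood markers CD3E and SPI1 had one, at 13.6 to 19.8 with DMSO, and PTPRC had none in this table; the sum of CD3E and SPI1 was 29.9 to 39.3 with DMSO and 21.3 to 32.0 with OICR-9429. Of 4 endothelial markers KDR had one (19.5 to 24.4 with DMSO and 21.7 to 32.5 with OICR-9429), and PECAM1, CDH5 and TEK had none.

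OICR-9429 was accompanied by more H3K4me2 at the starts of KDM5C, KDM1B, SETD7 and KDM5A, relative to all regions. The strongest start region, that of KDM2B, gave 122 ± 13.5 normalised CPM with DMSO and 124 ± 10.5 with OICR-9429 (SD, n = 3), and the changes of KDM1A and KDM5B lay between. Of the 7 start regions 4 were called higher and 0 lower by edgeR's quasi-likelihood test (Benjamini-Hochberg adjusted p under 0.05 over all 51156 regions). Among all 11051 tested start regions of protein-coding genes 54.1% were called higher and 1.72% lower, so 4 of 7 (57.1%) is a share near the background. Of the 13152 protein-coding genes with a start region 10645 had a start window, as all 7 genes here do. The rest took the stronger region within 1 kb of either gene end, and the effect of this on the background was not tested. Leaving out 1 library at a time gave 3 (without DMSO replicate 1 or 2) to 6 (without DMSO replicate 3). The share of all start regions was not counted in those fits. The median log2 fold change of the 7 was 0.47, beside 0.38 for all start regions. In 5 of the 7 every OICR-9429 library lay above every DMSO library, which held for 64.8% of all start regions (the reverse held for 2.74%).

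**Figure D1:**
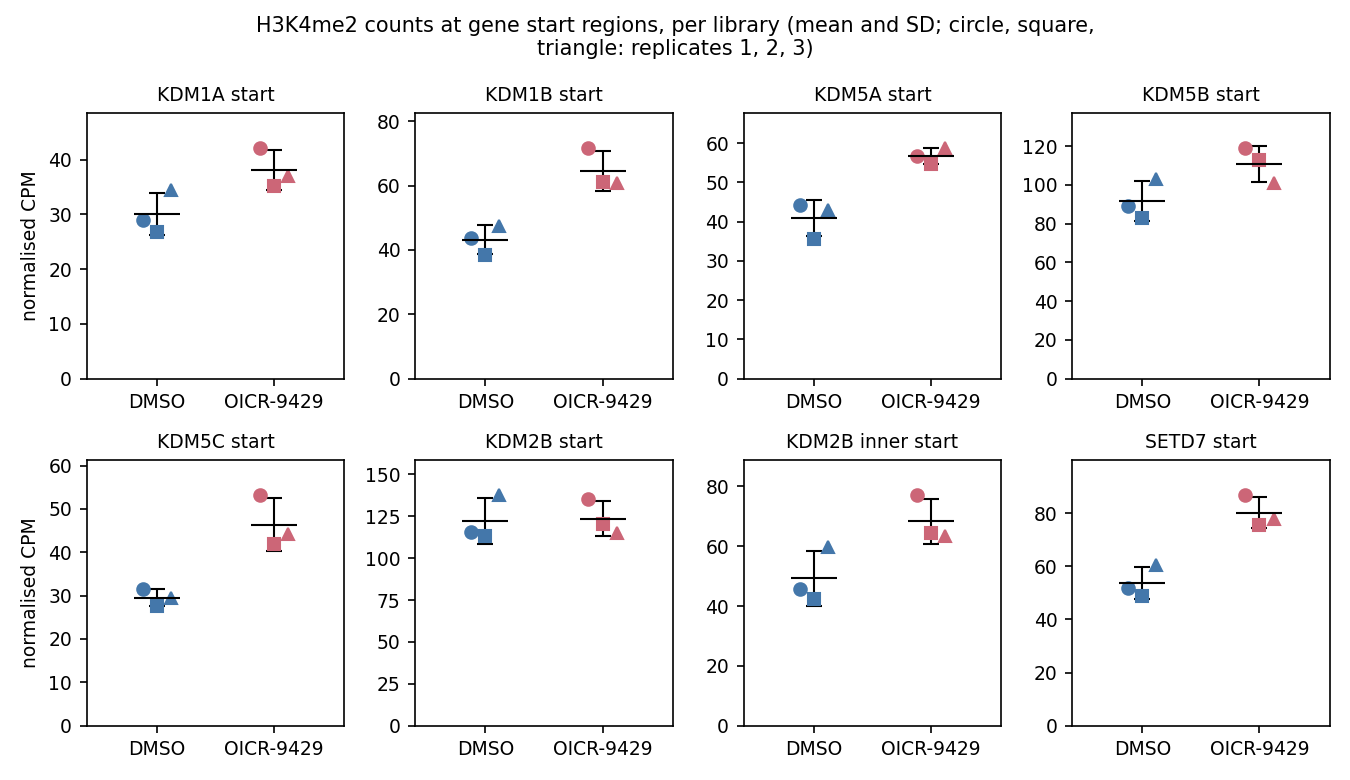
Normalised CPM (vertical axes, each from 0) in each of the 3 DMSO and 3 OICR-9429 libraries at the start regions of the 7 genes and at the inner start region of KDM2B, with the group mean (line) and SD (bars). The groups are separate in 6 panels, while they overlap at the starts of KDM5B and KDM2B.

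Among the flavin-dependent demethylases, KDM1B rose and KDM1A did not pass the test. The start region of KDM1B (chromosome 6, 18153125 to 18156846) gave 43.8, 38.4 and 47.4 normalised CPM in DMSO replicates 1 to 3 and 71.7, 61.1 and 60.9 in OICR-9429 replicates 1 to 3. All 3 treated libraries were above all 3 controls. Its log2 fold change was 0.58 (SE 0.13, adjusted p = 0.00656 by edgeR, 95% interval 0.31 to 0.85). This region also holds the promoter of TPMT, which encodes thiopurine methyltransferase, so its counts belong to both genes.

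KDM1A has a single region (chromosome 1, 23018272 to 23022009), at its start and shared with no other gene. It gave 29.0, 26.8 and 34.4 normalised CPM with DMSO and 42.1, 35.2 and 37.0 with OICR-9429. The groups do not overlap, but the lowest treated library was close to DMSO replicate 3. A log2 fold change of 0.34 missed the threshold (SE 0.13, adjusted p = 0.0607), and it passed only without DMSO replicate 3 (0.45, adjusted p = 0.0106). Its 95% interval, 0.06 to 0.63, includes the estimate for KDM1B. Read as a ratio of counts within each library, KDM1A to KDM1B shifted by -0.24 without overlap between the groups (exact permutation p = 0.1, the smallest possible, adjusted p = 0.175 over the 21 pairs of start regions). Of all pairs of start regions, 35.4% had a ratio without overlap in either direction.

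No other region of KDM1B was called. A region 61.3 kb into the gene (chromosome 6, 18215813 to 18217643) gave 14.0 ± 1.30 (SD, n = 3) normalised CPM with DMSO and 15.3 ± 2.01 with OICR-9429, and the groups overlap (log2 fold change 0.13, adjusted p = 0.493). A weak region beyond the 3′ end, inside the neighbouring gene DEK (chromosome 6, 18226545 to 18229015), gave 3.36 ± 0.581 with DMSO and 2.29 ± 0.272 with OICR-9429. There all treated libraries lay below all controls. Its log2 fold change of -0.56 missed the threshold with TMM (adjusted p = 0.0529) and passed it with library totals (-0.77, adjusted p = 0.0260), with DESeq2 size factors (-0.59, adjusted p = 0.0458), and in 3 of the other settings.

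In the KDM5 family the start regions of KDM5C and KDM5A were called higher and that of KDM5B was not. KDM5C, on the X chromosome, had the lowest start region of the family per kilobase with DMSO, 6.75 ± 0.453 normalised CPM per kb, and the largest log2 fold change above 0 of the 18 tested regions. Its start region (chromosome X, 53221725 to 53226098) gave 31.5, 27.5 and 29.5 normalised CPM with DMSO and 53.2, 41.9 and 44.2 with OICR-9429. The lowest treated library stood well above the highest control. This is a log2 fold change of 0.65 (SE 0.13, adjusted p = 0.00432), or a fold of 1.57, above that of 98.1% of all start regions. The upstream edge of this region reaches into the annotated span of IQSEC2 but holds no promoter of another gene. A weaker region 13.2 kb into KDM5C (chromosome X, 53211252 to 53212744) gave 3.20 ± 0.470 with DMSO and 3.19 ± 0.163 with OICR-9429 (log2 fold change -0.01, adjusted p = 0.986), with a 95% interval of -0.42 to 0.41.

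KDM5A, first described as a binding partner of the retinoblastoma protein, had a smaller log2 fold change than KDM5C, though their ratio overlapped between the groups. Its start region (chromosome 12, 385687 to 390679) also holds the promoter of CCDC77 and gave 44.1, 35.7 and 43.0 normalised CPM with DMSO. With OICR-9429 it gave 56.6, 54.8 and 58.8, all above the controls. By edgeR the log2 fold change was 0.47 (SE 0.12, adjusted p = 0.0137). The call was lost with loess offsets (0.15, adjusted p = 0.251), against a minimum fold of 1.2 (adjusted p = 0.101), without DMSO replicate 1 (0.47, adjusted p = 0.0503) and without DMSO replicate 2 (0.32, adjusted p = 0.0855). The remaining 2 KDM5A regions, at 75.2 and 32.3 kb into the gene, held at most 15 counts in any library and did not pass the filter on low counts.

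KDM5B, a gene often highly expressed in breast tumours, had the widest start region of the 7 genes, 9177 bases (chromosome 1, 202802859 to 202812035), wider than 90.2% of all start regions. It also covers the promoter of the noncoding RNA gene PCAT6. It gave 89.3, 82.8 and 103 normalised CPM with DMSO and 119, 113 and 101 with OICR-9429. DMSO replicate 3 lay above OICR-9429 replicate 3, so the groups overlap, and the log2 fold change of 0.27 did not pass (SE 0.12, adjusted p = 0.0920). It passed without DMSO replicate 3 (0.37, adjusted p = 0.0152) and turned to -0.06 with loess offsets. A region 4.20 kb beyond the 3′ end of KDM5B gave 1.93 ± 0.372 and 1.49 ± 0.281 normalised CPM with DMSO and OICR-9429 (log2 fold change -0.37, adjusted p = 0.256).

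KDM2B had 8 regions along its 174 kb, and they moved in different directions. In normalised CPM per kb, 3 of them stood far above the rest: the start region at 16.9 ± 1.87 with DMSO, a region 44.7 kb into the gene at 21.1 ± 5.01, and a region 115 kb into the gene at 15.1 ± 2.83. The last of these holds the innermost annotated start of KDM2B, the one printed above with 46 CpG. The region at 44.7 kb holds no annotated start of the RefSeq table, although its density, not corrected by input, was above that of 99.6% of all start regions. The other 5 KDM2B regions lay between 0.473 and 2.27 normalised CPM per kb.

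The start region of KDM2B (chromosome 12, 121576404 to 121583638) covers 3 of its 4 annotated starts and the promoter of the divergent transcript KDM2B-DT. It gave 116, 113 and 138 normalised CPM with DMSO and 135, 120 and 115 with OICR-9429, so the groups overlap throughout. Its log2 fold change of 0.02 did not pass (SE 0.12, adjusted p = 0.925), with a 95% interval of -0.23 to 0.27 that lies below the start region median of 0.38. Only 8.37% of all tested start regions had a lower log2 fold change. With loess offsets the same region was called lower (-0.32, adjusted p = 0.00776), so its direction depended on the scaling.

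The inner start region (chromosome 12, 121465297 to 121468565) did rise. It gave 45.6, 42.4 and 59.8 normalised CPM with DMSO and 77.1, 64.3 and 63.5 with OICR-9429, and the groups do not overlap. That is a log2 fold change of 0.47 (SE 0.14, adjusted p = 0.0233). DMSO replicate 3 lay close to the treated libraries. The call was lost with loess offsets (0.15, adjusted p = 0.241), against a minimum fold of 1.2 (adjusted p = 0.127) and without DMSO replicate 1 (0.36, adjusted p = 0.135), DMSO replicate 2 (0.32, adjusted p = 0.137) or OICR-9429 replicate 1 (0.31, adjusted p = 0.0663).

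Of the strong KDM2B regions, the one at 44.7 kb (chromosome 12, 121535697 to 121539473) had the largest SD between replicates in both groups. It gave 71.8, 66.3 and 101 normalised CPM with DMSO and 118, 101 and 88.5 with OICR-9429. DMSO replicate 3 was above OICR-9429 replicates 2 and 3, so the groups overlap and the log2 fold change of 0.36 did not pass (SE 0.16, adjusted p = 0.0851). Without DMSO replicate 3 it passed (0.57, adjusted p = 0.00359).

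Among the weak KDM2B regions 1 was called lower and none higher. Of all tested regions inside protein-coding genes, start regions left out, 18.5% were called lower and 6.64% higher. A region 130 kb into KDM2B (chromosome 12, 121452005 to 121453286) gave 3.27, 2.87 and 2.60 normalised CPM with DMSO and 1.36, 1.47 and 0.97 with OICR-9429. Every treated library was below every control, by a wide margin. The fitted log2 fold change was -1.18 (SE 0.23, adjusted p = 0.00393), the largest log2 fold change in either direction among the 18 tested regions. It rests on 15 to 61 counts per library. The call was kept in each of the 15 other settings in which the region could be tested, between -1.39 and -0.84. The region at 68.5 kb had a log2 fold change of -0.71 (adjusted p = 0.0839), the one at 138 kb -0.31 (adjusted p = 0.270), the one at 158 kb 0.25 (adjusted p = 0.559), and the one beside the 3′ end 0.05 (adjusted p = 0.918). The region at 158 kb and the one beside the 3′ end also overlap the annotated span of RNF34.

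**Figure D2:**
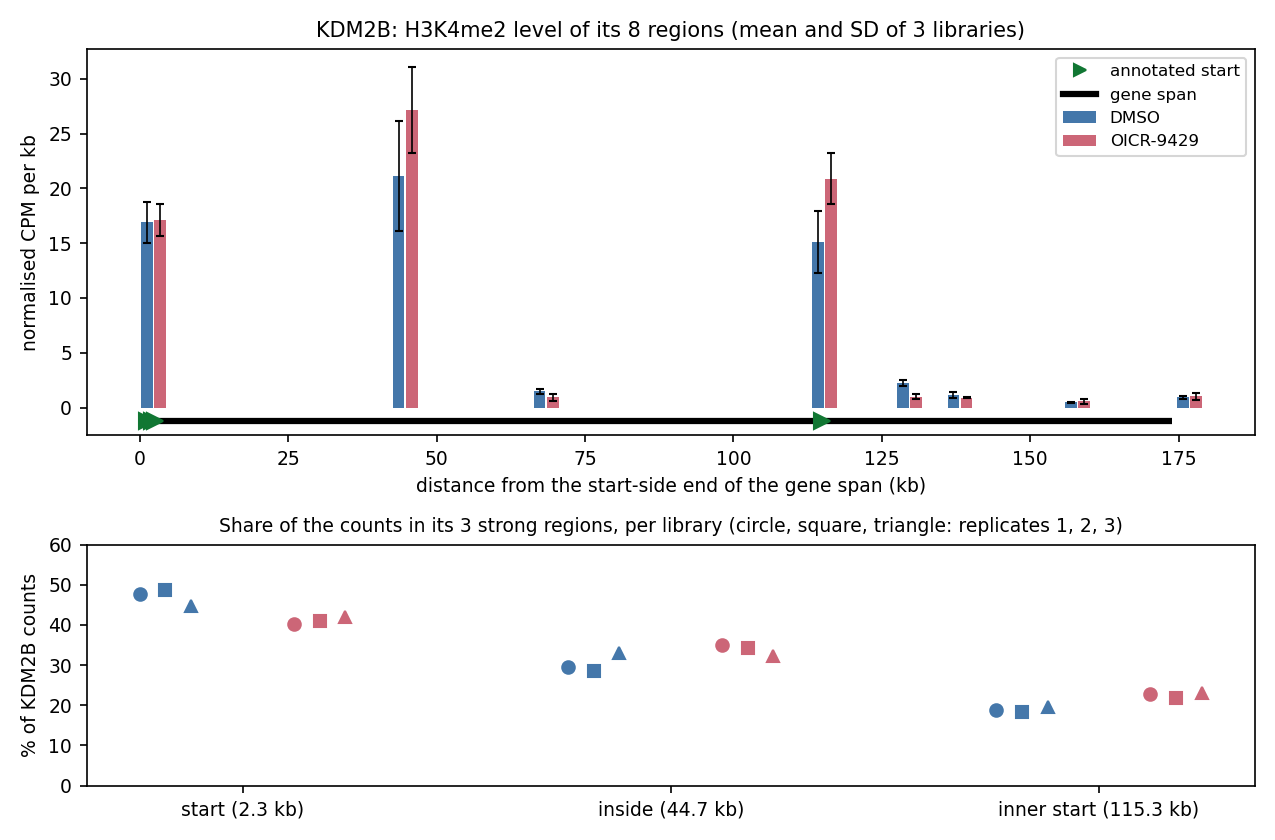
Top, normalised CPM per kb of the 8 KDM2B regions (mean and SD of 3 libraries, paired bars drawn beside each region's midpoint) against the distance in kb from the start-side end of the gene span, with the annotated starts below. Bottom, percent of all KDM2B counts in each of its 3 strong regions per library: the start region has a mean of 47.1% with DMSO and 41.1% with OICR-9429, and the inner start region 18.8% and 22.7%.

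The split within KDM2B does not depend on how libraries are scaled, because it can be read as a share of the counts in all regions assigned to the gene. The start region held 47.7%, 48.8% and 44.8% of all KDM2B counts in DMSO replicates 1 to 3 and 40.2%, 41.0% and 42.1% in the OICR-9429 replicates. All treated shares were below all control shares, a difference of -5.99 percentage points (exact two-sided permutation test, p = 0.1, the lowest value possible with 3 libraries a group; adjusted p = 0.125 over 5 genes). The inner start region held 18.8% ± 0.589 with DMSO and 22.7% ± 0.658 with OICR-9429. The log2 ratio of inner start to start region was -1.32 ± 0.108 with DMSO and -0.86 ± 0.0458 with OICR-9429, without overlap (exact permutation p = 0.1, adjusted p = 0.15 over 3 ratios). A start-region share that fell without overlap was seen in 6.51% of the 8839 protein-coding genes with at least 2 regions, and one that rose in 39.3%.

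In the other 4 genes with several regions the mean share of the start region was larger with OICR-9429. In KDM1B it went from 71.3% ± 4.38 to 78.4% ± 3.63, in KDM5C from 90.2% ± 1.51 to 93.5% ± 1.03 and in KDM5B from 97.9% ± 0.198 to 98.7% ± 0.230, each without overlap between the groups. In KDM5A the shares overlapped, at 98.3% ± 0.526 and 98.6% ± 0.371. Among the 8839 protein-coding genes with at least 2 regions, the mean share was larger with OICR-9429 in 77.8%, and it rose without overlap in 39.3%. The median difference over these 8839 genes was 2.57 percentage points, so a larger share is common and not particular to the genes described here. The shares of the 4 genes include regions within the 5 kb margin. For KDM5B the only other region is the weak one beyond its 3′ end, so its share describes no shift inside the gene. The KDM1B counts include the region inside DEK and the start region shared with TPMT. The first 3 reached the exact permutation p of 0.1 (adjusted p = 0.125 over the 5 genes), and KDM5A had p = 0.3. None could pass 0.05 with this number of libraries.

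SETD7, the only methyltransferase of the set, also rose. It also monomethylates proteins other than histones. Its single region (chromosome 4, 139552349 to 139558160) lies at its start and touches no other gene. It gave 51.7, 49.0 and 60.5 normalised CPM with DMSO and 86.8, 75.7 and 77.9 with OICR-9429. The lowest treated library was above the highest control. For SETD7 the log2 fold change was 0.58 (SE 0.12, adjusted p = 0.00595), a fold of 1.49.

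At KDM5C, KDM1B and SETD7 the call did not depend on the settings tried. Under all 16 other settings, which changed the scaling, the filter, the tool, the threshold or the libraries, each stayed called higher. Log2 fold changes ranged from 0.35 to 0.72 for KDM5C, from 0.26 to 0.65 for KDM1B and from 0.25 to 0.67 for SETD7, lowest with loess offsets in each case. With loess offsets 7.09% of all start regions were called higher and 3.12% lower, and these 3 were among the former. The largest adjusted p in any setting was 0.0355 for KDM5C, 0.0434 for KDM1B and 0.0410 for SETD7.

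**Figure D3:**
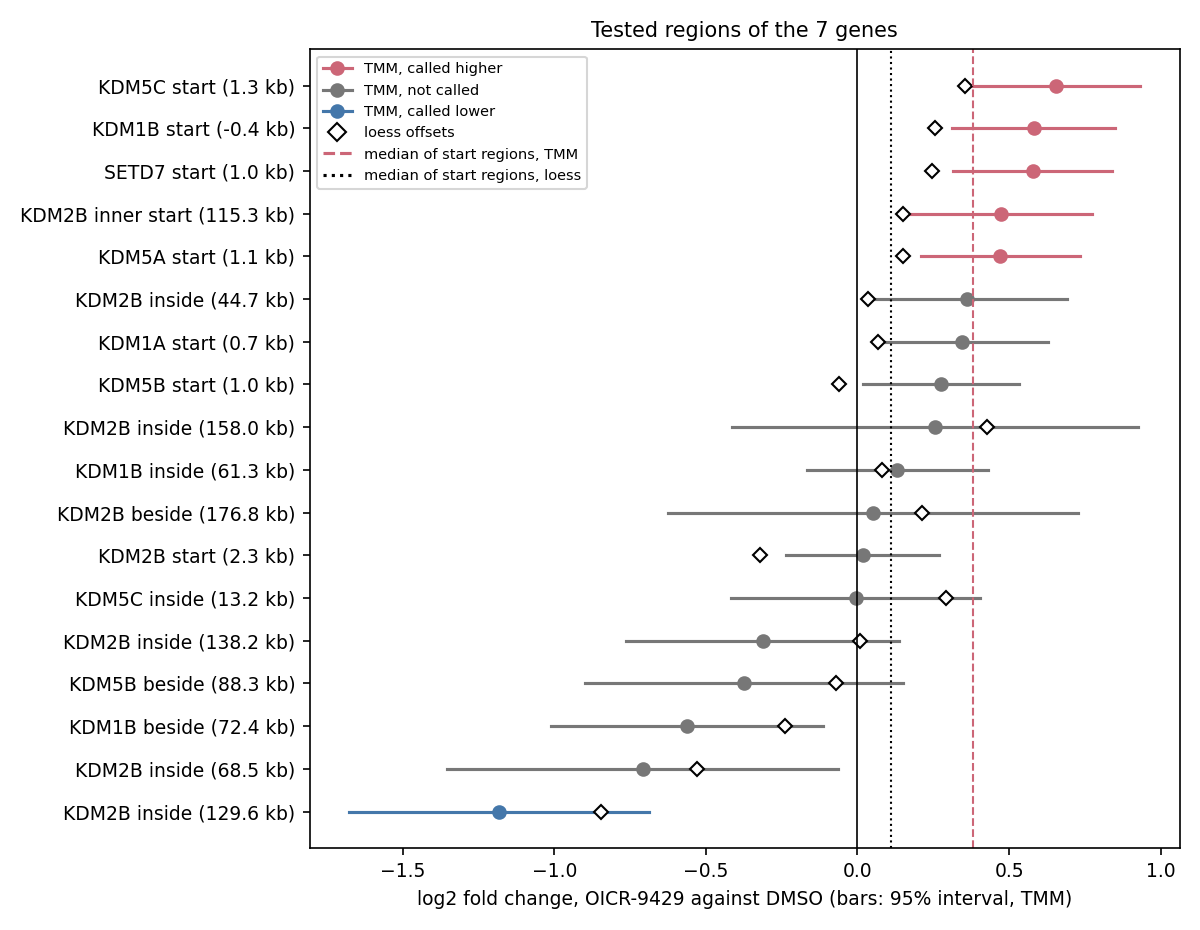
Log2 fold change (horizontal axis) of the 18 tested regions of the 7 genes, with the distance of each region from the start-side end of its gene in brackets. Filled circles and 95% intervals are TMM values and open diamonds loess offsets; dashed and dotted lines mark the medians of all start regions, 0.38 and 0.11. All start regions but that of KDM2B, which lies near 0, are among the 8 highest values.

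Differences between the 7 start regions were also compared as log2 ratios of counts within a library, which need no scaling. In 12 of the 21 pairs the ratio did not overlap between the groups (57.1% of pairs, against 35.4% of all pairs of start regions). The pairs share regions and are not independent. All 6 pairs with the KDM2B start were among the 12, so the 57.1% leans on that 1 region. In these 6 pairs the ratio shifted against KDM2B by 0.63 for KDM5C, 0.56 for KDM1B and SETD7, 0.46 for KDM5A, 0.33 for KDM1A and 0.26 for KDM5B. The exact permutation p of these was 0.1, the smallest possible, and 0.175 adjusted over 21 pairs. Within the KDM5 family the ratio of KDM5B to KDM5C differed by -0.37 without overlap, while those of KDM5A to KDM5B (0.20) and KDM5A to KDM5C (-0.17) overlapped between the groups. KDM1B and SETD7 had nearly the same ratio in both groups, -0.31 ± 0.0655 with DMSO and -0.31 ± 0.0397 with OICR-9429, a difference of 0.00.

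Per kilobase with DMSO, the order of the start regions was KDM2B (16.9 ± 1.87 normalised CPM per kb), KDM1B (11.6 ± 1.22), KDM5B (9.99 ± 1.13), SETD7 (9.24 ± 1.04), KDM5A (8.20 ± 0.920), KDM1A (8.04 ± 1.04) and KDM5C (6.75 ± 0.453). Only KDM2B stood apart from its neighbour by more than their SDs combined; each other step was smaller. All start regions had a median of 8.29. No input library was used to correct these levels, so the order compares uncorrected counts of different loci. With OICR-9429 KDM1B reached 17.3 ± 1.66, level with KDM2B at 17.1 ± 1.45, and KDM5C reached 10.6 ± 1.37, level with KDM1A at 10.2 ± 0.963.

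Away from the starts the 7 genes gave few calls. Of the 13 other regions 11 were tested, 1 was called higher, the inner start of KDM2B, and 1 lower, the region 130 kb into KDM2B. Over all 20 regions the counts were 5 higher and 1 lower among 18 tested, while 17% of all tested regions were called higher and 14% lower. Without DMSO replicate 1 or 2 the higher regions numbered 3, and without DMSO replicate 3 they numbered 8 with 2 lower. Library totals gave 5 higher and 3 lower. The shares of all tested regions were not counted in those settings. With TMM and all libraries, the shares inside protein-coding genes, start regions left out, were 6.64% higher and 18.5% lower. Of the 11 regions 1 lay above without overlap and 3 below, against 13.4% and 27.1% of the regions inside genes. The median of the 11 was -0.01, against -0.09 for those regions. At the edge of the 5 kb window, the member farthest from its gene was the KDM5B region at 4.20 kb. The nearest region left out lay 5.27 kb beyond the 3′ end of KDM2B, at 54.5 ± 7.48 normalised CPM with DMSO and 69.5 ± 2.87 with OICR-9429 (log2 fold change 0.35, adjusted p = 0.0446).

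**Figure D4:**
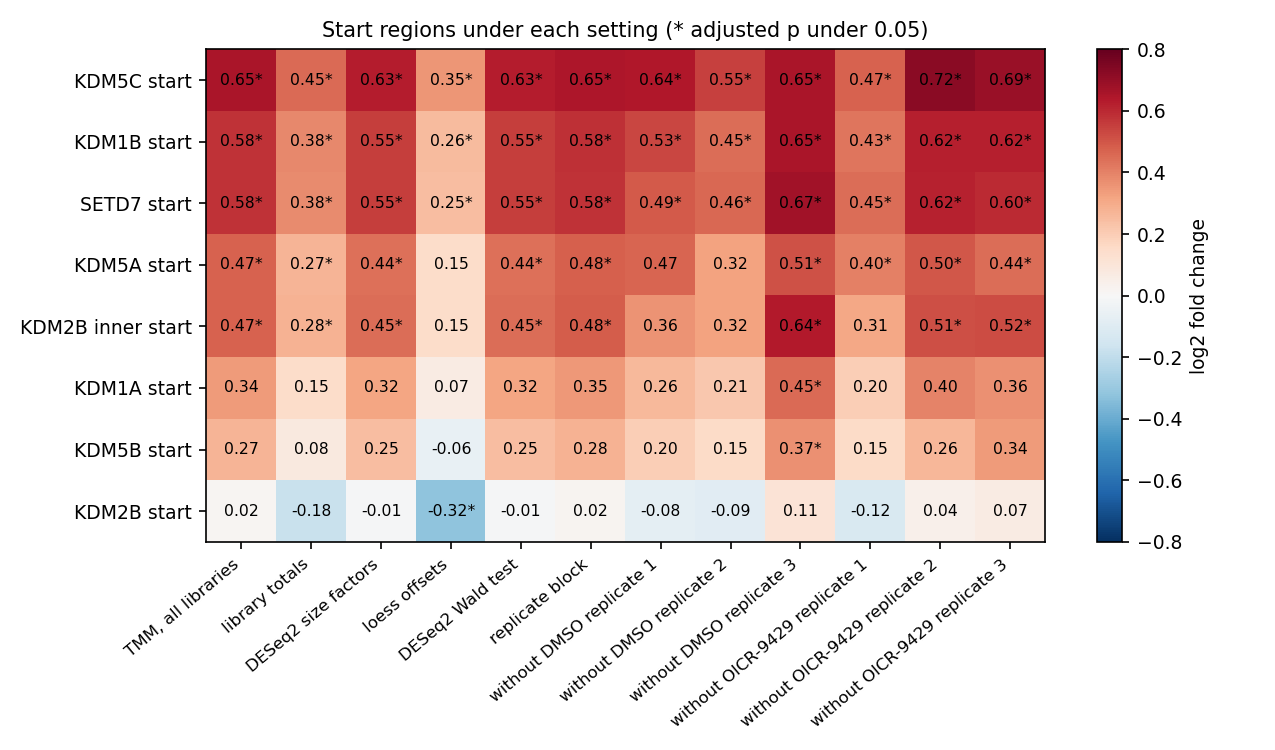
Log2 fold change of the 8 start regions (rows, the inner start of KDM2B included) under TMM with all libraries and 11 other settings (columns); colour gives the value and an asterisk an adjusted p under 0.05. The rows of KDM5C, KDM1B and SETD7 carry an asterisk throughout, and the KDM2B start changes sign between columns.

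Genes that work with or against these enzymes were read from 5 lists, 78 genes with 70 tested start regions. Together 52 of them (74.3%) were called higher and 0 lower, and the median was 0.43, beside 54.1% higher and a median of 0.38 for all start regions. With loess offsets 7 of the 70 were called higher and 1 lower, beside 7.09% and 3.12% of all start regions. Without DMSO replicate 1 or 2 the numbers called higher were 7 and 6, without OICR-9429 replicate 1 or 2 they were 29 and 31, and library totals gave 26. For these settings the shares of all start regions were not counted, so the drop is not a result about the listed genes. The counts per list below are a description to be read beside the 54.1% of all start regions, and carry the same dependence on single libraries.

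On the writing side, of 20 start regions of H3K4 methyltransferases and their complex subunits 16 were called higher and 0 lower (median 0.43). PAXIP1, a subunit of the KMT2C and KMT2D complexes, went from 57.4 ± 4.71 with DMSO to 85.0 ± 9.75 with OICR-9429 in normalised CPM, a log2 fold change of 0.57 (adjusted p = 0.00653). SETD1B, an H3K4 methyltransferase, rose by 0.49 (adjusted p = 0.00874) in a region it shares with RHOF, and WDR5, the protein that OICR-9429 binds, by 0.42 (adjusted p = 0.0261). With loess offsets none of the 20 was called, where 7.09% of all start regions were called higher and 3.12% lower. The values were 0.23 for PAXIP1, 0.17 for SETD1B and 0.09 for WDR5.

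On the erasing side, the other histone lysine demethylases had 10 higher and 0 lower of 14 (median 0.48). PHF8, which removes H3K9 and H4K20 methylation, went from 21.7 ± 2.34 with DMSO to 33.9 ± 3.59 with OICR-9429 in normalised CPM, a log2 fold change of 0.65 (adjusted p = 0.00521). KDM3A, an H3K9 demethylase, rose by 0.65 (adjusted p = 0.00703). Both kept their calls under all 16 other settings, with lowest values of 0.42 and 0.36. With loess offsets 4 of the 14 were called higher, beside 7.09% of all start regions, and 1 lower, beside 3.12%. The lower one, JMJD1C (-0.30, adjusted p = 0.0236), was chosen after its value was seen, and its region is also the start region of REEP3.

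Partners of the demethylases gave similar counts. Those of LSD1 and LSD2 had 12 higher and 0 lower of 16 (median 0.42), and the smallest p-values were those of the chromatin remodeller CHD4 (0.52, adjusted p = 0.0116) and the deacetylase HDAC2 (0.46, adjusted p = 0.0127). Partners of KDM5 proteins had 9 higher and 0 lower of 12 (median 0.43), and the smallest p-values were those of MGA, a MAX-binding repressor (0.60, adjusted p = 0.00662), and PHF12, a subunit of a SIN3 complex (0.59, adjusted p = 0.00806). Partners of KDM2B in PRC1.1 had 5 higher and 0 lower of 8 (median 0.35), with PCGF1 at 0.55 and BCOR at 0.57 (adjusted p = 0.0123 and 0.0138). The region of PCGF1 is shared with LBX2. HDAC2, CHD4, PCGF1 and BCOR lost their calls with loess offsets, and MGA and PHF12 kept theirs. The call at MGA was lost without DMSO replicate 1 (0.46, adjusted p = 0.0596) and that at PHF12 without DMSO replicate 2 (0.44, adjusted p = 0.0503). SETD1B, WDR5, HDAC2, CHD4, PCGF1 and BCOR lost their calls both without DMSO replicate 1 and without DMSO replicate 2 (adjusted p from 0.0551 to 0.153). With library totals HDAC2 (0.26, adjusted p = 0.0503) and WDR5 (0.23, adjusted p = 0.0756) lost theirs, and WDR5 did so too without OICR-9429 replicate 1 (0.25, adjusted p = 0.126).

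By pattern over the 6 libraries, the start regions most like those of the 7 genes were found by Euclidean distance of centred log2 normalised CPM. They were QRICH1 for KDM1A, TRIM33 for KDM1B, AEBP2 for KDM5A, PARL for KDM5B, the region shared by BEST1 and FTH1 for KDM5C, PPM1F for KDM2B and TENT4B for SETD7. Each was selected as the smallest distance, so its closeness is a description. Distances were 0.0260 to 0.111, the largest for KDM5C, against medians of 0.250 to 0.521 over 5657 or 5658 start regions.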

How the data were processed

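The authors deposited raw read counts, without normalisation, for the 6 ChIP libraries over a shared list of 54942 regions. Per the submitters' processing notes, Bowtie, MACS2, deepTools, featureCounts and DESeq2 were used with hg38 and dm6. Their settings are not stated in the labels used here, and a site outside that list cannot be measured. Input libraries and the untreated ChIP library were not analysed here.

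The test of 3 OICR-9429 against 3 DMSO libraries ran over the whole list in edgeR 4.0.16 (R 4.3.3) with filterByExpr, TMM, a robust glmQLFit and glmQLFTest, no covariate, and Benjamini-Hochberg adjustment at 0.05. The standard error is the size of the log2 fold change divided by the square root of F. The scripts were tested on simulated data. Alternatives were library totals, DESeq2 1.42.0 size factors, loess offsets (limma 3.58.1, span 0.3), other count filters, each library left out, the Wald test of DESeq2, a replicate block, no robust estimation, stricter thresholds, gene spans without the 5 kb margin and summed regions. Gene spans and starts came from RefSeq tables. A gene without a start window took the stronger region within 1 kb of either end. Exons and introns were not told apart.

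Named genes are the 7 members, the 2 with the smallest p in each list, WDR5, and each member's nearest start region over the 6 libraries (log2 of normalised CPM plus 0.5) among start regions of at least median count. Members and lists were chosen with earlier results of these data known, and the pair ratios were added after the counts were seen. Shares and ratios were compared with exact permutation tests in scipy 1.17.1. A result for 1 marker gene is not reported here.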

Additional observations from a re-analysis of the deposited data

How the results depend on the processing

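Against 5 higher and 1 lower of the 20 regions, and 52 higher list regions, loess offsets gave 3 and 2, and 7; library totals 5 and 3, and 26; a minimum fold of 1.2 gave 3 higher, and 7; an adjusted p under 0.01 gave 3 higher, and 11; DESeq2 size factors and no count filter gave 2 lower each; and a mean count of at least 50 gave 34 list regions. Leaving out 1 library gave 3 to 8 higher, 1 to 2 lower and 6 to 66 list regions. Apart from loess offsets, the shares of all start regions under these settings were not counted. The replicate block, by equal replicate numbers, gave 5 higher, 1 lower and 37 list regions. The labels do not say whether libraries of equal number were handled together, and same-numbered deviations correlated at -0.16, 0.18 and -0.19. The log2 fold change of the KDM2B start, 0.02, turned to -0.00916 with DESeq2's Wald test, -0.00919 with its size factors, -0.18 with library totals, -0.32 with loess offsets, -0.0844 with a mean count of at least 50 and -0.0521 without filter, and ran from -0.12 to 0.11 with 1 library left out. Of the regions without a call, KDM5B's start turned to -0.0608 with loess offsets, KDM1B's inner region to -0.0713 with library totals, and KDM5C's to 0.29 with loess offsets (-0.12 to 0.00696 with 1 library left out). The KDM2B region at 138 kb turned to 0.00990 with loess offsets, that at 158 kb ran from -0.0799 to 0.47 with 1 library left out, and that beside the gene turned to -0.14 with library totals and -0.0202 without filter, and ran from -0.20 to 0.27. The cause was not tested. Start-region shares kept their direction in each setting tried. Regions of under 100 counts, such as the lower one in KDM2B, have wide intervals, and a shift common to all regions was not measured here.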
